A study of Mus musculus with 8 samples.

Results

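Genes of compact myelin and the mature oligodendrocyte were followed in the P3 mouse cortex, 9 in all: Mbp, Mobp, Cldn11, Mal, Cnp, Mag, Mog, Opalin and Aspa. They were chosen by name, as genes whose products build the myelin sheath or mark the cell that makes it, and are 9 of the 48709 genes counted. The RNA-seq compared 4 dcKO_hGFAP-Cre cortices with 4 controls. The mutants carry 2 floxed copies of both BAF155 and BAF170, scaffold subunits of the BAF chromatin remodeling complex, and hGFAP-Cre, in which a human GFAP promoter drives the recombinase in radial glia of the dorsal telencephalon. The methods give the controls as Cre-positive with 1 floxed copy of each gene, so that both groups would carry Cre, but in the labels they are wild type. Cells without Cre activity stay in the tissue, and the mutants are described as dying soon after birth.

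Oligodendrocytes wrap axons in a membrane that is compacted into myelin. Precursors that express Pdgfra commit to differentiation, pass through a premyelinating stage and only then make large amounts of myelin protein, under transcription factors such as Sox10 and Myrf. In the mouse cortex most myelin forms after the first postnatal week, so P3 lies before the main period of myelination.

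The stretches before the start sites of 3 of the genes are printed to show how differently the group is built at its promoters: Cnp passed the test below, Mobp was nearly silent and Cldn11 had the largest standard error of the tested genes. The sequences come from RefSeq, matched for all of the genes but Mbp, on GRCm38.p6, the assembly of mm10, each on its gene's own strand. Capitals mark ACAAAG or its reverse complement CTTTGT, letters that SOX family factors such as Sox10 can bind. The printed stretches are chr11:100574689-100574903 (+ strand) for Cnp, chr9:120149492-120149706 (+ strand) for Mobp and chr3:31149670-31149919 (+ strand) for Cldn11. Those of Cnp and Mobp stop just before the gene start given below, and their last base lies 36 bases before the RefSeq start site.
Cnp: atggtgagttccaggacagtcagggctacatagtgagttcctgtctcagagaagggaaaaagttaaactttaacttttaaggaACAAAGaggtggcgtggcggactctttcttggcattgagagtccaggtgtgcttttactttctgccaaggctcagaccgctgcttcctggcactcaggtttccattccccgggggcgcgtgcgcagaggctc
Mobp: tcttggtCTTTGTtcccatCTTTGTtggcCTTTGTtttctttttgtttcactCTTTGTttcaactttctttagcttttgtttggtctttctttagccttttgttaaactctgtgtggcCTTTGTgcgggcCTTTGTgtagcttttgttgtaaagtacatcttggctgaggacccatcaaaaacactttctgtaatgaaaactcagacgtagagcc
Cldn11: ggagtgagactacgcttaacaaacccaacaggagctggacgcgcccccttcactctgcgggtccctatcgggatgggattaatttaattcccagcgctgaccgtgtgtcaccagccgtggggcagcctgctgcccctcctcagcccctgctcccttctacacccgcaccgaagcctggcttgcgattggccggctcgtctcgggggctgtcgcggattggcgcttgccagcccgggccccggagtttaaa
In the 250 bases before its start site Mobp held 6 matches, 120 to 243 bases upstream. Of 32851 promoters, counting that of Mobp itself, 0.00304% held as many. Cnp and Opalin held 1 match each, as did 2 of the 3 Mag start sites, whereas Cldn11, Mal, Mog and Aspa held none. The stretches before those 2 Mag start sites overlap and hold the same match. At least 1 match was present in 16.5% of all promoters. A further 4 motifs were searched on both strands. The letters AACAAT, also bound by SOX factors, were present in 9.42% of promoters. The general E-box CANNTG was found in 66.2% and its form CAGCTG, counted in both, in 13%. The TATA box letters TATAAA were present in 12.4%. Aspa held 1 AACAAT, 3 E-boxes, of which 1 was CAGCTG, and 3 TATAAA, and the other genes held no match to these 4 except for 1 E-box each in Cnp and Opalin and 1 and 2 at separate Mag start sites. ACAAAG was chosen for display after all 5 had been counted. A match describes letters only.

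Expression is given in CPM, normalized counts per gene scaled to a common library total with TMM, and group tests are quasi-likelihood F tests of edgeR, adjusted over 16525 genes by the Benjamini-Hochberg method. Total counts ran from 21126713 to 32110285 per sample. The deleted genes were lower in every mutant: Smarcc1 (BAF155) fell from 159 ± 11.2 to 81.2 ± 5.9 CPM (SD, n = 4) and Smarcc2 (BAF170) from 483 ± 14.7 to 283 ± 28.2 CPM (SD, n = 4). Cortical markers summed to 1893 to 2015 CPM in control and 1053 to 1203 CPM in mutant samples, so the labelled tissue was seen in all 8. Markers of striatal projection neurons summed to 122 to 175 CPM in control and 364 to 703 CPM in mutant samples, and those of microglia to 111 to 149 and 203 to 243 CPM. The largest part of the striatal sum was Ppp1r1b, at 34.2 to 49.1 CPM in control and 271 to 343 CPM in mutant samples. Of the 8 striatal markers 5 were called higher, but only 2 lay above all controls in every mutant. Drd1 had a log2 fold change of -0.17, with 7.58 CPM in mutant 2 and 16.7 to 23.8 CPM in controls. Choroid plexus markers reached 631 and 1199 CPM in mutants 1 and 2, against 8.30 to 26.6 CPM in the other samples. Most of the sums in mutants 1 and 2 was Ttr, at 584 and 1128 CPM. Of the 8 choroid plexus markers 2, Otx2 and Kcne2, lay above all controls in every mutant. Otx2 was 0.0694 to 0.276 CPM in controls and 3.07 to 13.6 CPM in mutants, whereas Kl had a log2 fold change of -0.50. Endothelial markers summed to 181 to 239 CPM in control and 100 to 177 CPM in mutant samples, and ependymal markers to 18.3 to 21.4 and 9.66 to 14.7 CPM. Mitochondrial genes took 2.06% to 3.23% of counts in control and 3.57% to 5.47% in mutant samples. The part of these differences in the results below was not tested.

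Mbp and Cnp were lower in dcKO_hGFAP-Cre cortex and none of the other genes passed the test. The call of Cnp was lost in 7 of 8 fits that left out 1 sample, whereas that of Mbp held in all 8. Of the 9 genes, 7 had enough counts to be tested, 2 were lower and 0 were higher. Lower calls made up 18.9% of all genes tested and higher calls 18.6%. No gene of the 9 was higher at an unadjusted p under 0.05, and DESeq2 and limma-voom also called 0 higher. The median log2 fold change of the 7 was -0.03, beside 0.02 over all 16525 genes. Passing the filter on low counts depends on the counts themselves, so the 7 do not stand for all 9. In bulk tissue, fewer cells of a type and less RNA per cell cannot be told apart.

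**Figure D1:**
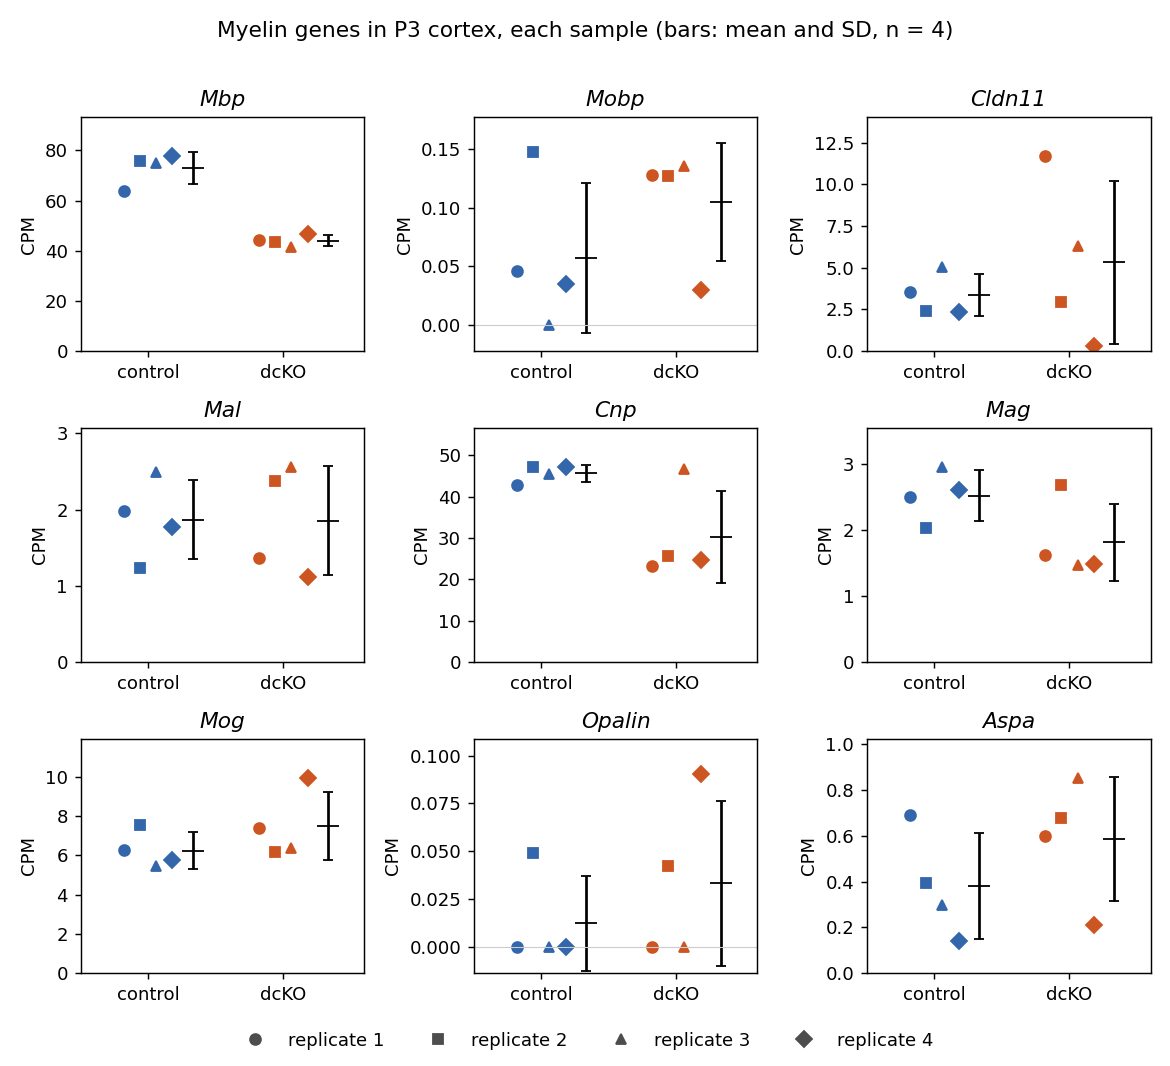
Normalized expression (CPM, linear axis) of the 9 genes in each control and dcKO_hGFAP-Cre (dcKO) sample, with a symbol for each replicate number and the mean and SD (n = 4) beside the points. Mbp is the gene whose groups are separate, and Cnp separates except for mutant replicate 3.

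Among the proteins of compact myelin, Mbp binds the cytoplasmic faces of the membrane together. Its expression was 63.7, 75.7, 75.0 and 77.8 CPM in controls 1 to 4 and 44.3, 43.4, 41.6 and 46.8 CPM in mutants 1 to 4. All mutants lay below all controls, as for 17.7% of genes tested. The log2 fold change was -0.73 (95% interval -0.92 to -0.54, standard error 0.09, edgeR adjusted p = 5.69e-05), a level 60.3% of control. The exact two-sided permutation test gave p = 0.0286, the smallest that 4 samples against 4 allow. Mbp (ENSMUSG00000041607) lies on chromosome 18 of mm10 from 82475146 to 82585637 and has 16 annotated transcripts. The gene also gives the golli forms, which are also made outside the oligodendrocyte lineage, and the counts per gene do not separate them.

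Mobp, a second cytoplasmic protein of compact myelin, was close to silent. The 4 control samples held 1, 3, 0 and 1 counts and the mutant samples 3, 3, 4 and 1 counts. A count of 3 equals 0.0906 to 0.148 CPM in these libraries, so no difference was detectable at this depth. Mobp lies on chromosome 9 from 120149707 to 120181484.

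Cldn11, the claudin of the tight junctions between myelin layers, was 3.54, 2.42, 5.05 and 2.36 CPM in controls 1 to 4 and 11.7, 2.92, 6.31 and 0.332 CPM in mutants 1 to 4. The mutants lay on both sides of the controls and spread more widely than the controls. The log2 fold change was 0.65 (95% interval -1.35 to 2.65, adjusted p = 0.584 from edgeR), and it was -0.09 without mutant 1. Cldn11 is also expressed by the fibroblasts of the leptomeninges. The 11 markers of those fibroblasts summed to 76.4, 48.2, 158 and 51.1 CPM in controls 1 to 4 and to 258, 79.4, 191 and 20.0 CPM in mutants 1 to 4. Mutant 1 was highest and mutant 4 lowest in both measures. None of the 11 markers passed edgeR's test, and 0 did so at an unadjusted p under 0.05. The genes with the pattern most like Cldn11 over the 8 samples were Lum, Gjb6, Serpind1, Col3a1 and Ogn, by the root mean square difference in centred log2 CPM, which was 0.209 for Lum and 0.384 for Ogn. Lum, Col3a1 and Ogn are on the fibroblast list, and the part of meningeal tissue in the Cldn11 values was not tested.

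Mal, a proteolipid that takes part in sorting myelin membrane, was 1.98, 1.23, 2.49 and 1.77 CPM in controls and 1.37, 2.37, 2.56 and 1.12 CPM in mutants. The groups overlapped throughout, with a log2 fold change of -0.03 (95% interval -0.67 to 0.62, adjusted p = 0.954 from edgeR). With library totals in place of TMM the value was 0.10, so no direction is given for Mal.

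**Figure D2:**
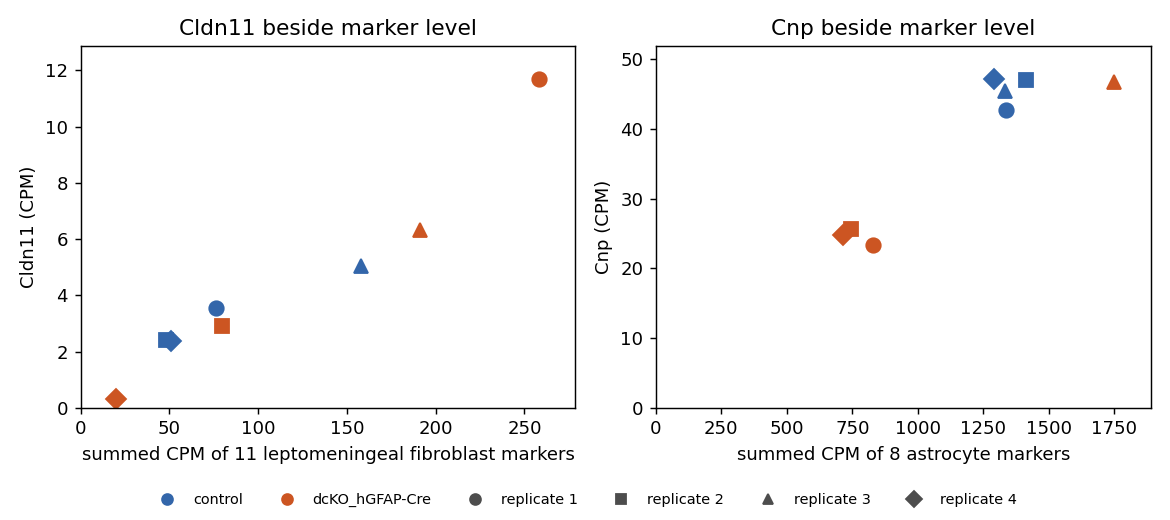
Left, Cldn11 (CPM) against the summed CPM of 11 leptomeningeal fibroblast markers. Right, Cnp (CPM) against the summed CPM of 8 astrocyte markers. Each point is 1 of the 8 samples, colored by group with a symbol for each replicate number, and mutant replicate 3 lies with the controls for Cnp.

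Cnp, an enzyme that keeps cytoplasmic channels open within myelin and is already made before compaction, was the second gene that fell. It was 42.8, 47.1, 45.4 and 47.2 CPM in controls 1 to 4 and 23.3, 25.7, 46.8 and 24.8 CPM in mutants 1 to 4. Mutant 3 lay among the controls, whereas the other mutants lay below every control. The log2 fold change was -0.60 (95% interval -1.04 to -0.15, standard error 0.20, edgeR adjusted p = 0.0394), and the exact two-sided permutation test gave p = 0.0857. Without mutant 3 it was -0.89 (edgeR adjusted p = 1.13e-05), and with any other single sample left out the call was lost, with an edgeR adjusted p of up to 0.114. Cnp (ENSMUSG00000006782) lies on chromosome 11 from 100574904 to 100591729. It shares 154 of 3639 exon bases (4.23%) with Dnajc7 on the opposite strand, and the strand setting of the counting is not given in the sources used here. Dnajc7 was 178 ± 9.23 CPM in controls and 162 ± 8.45 CPM in mutants (SD, n = 4), with an edgeR adjusted p of 0.142.

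Mutant 3 also stood apart in astrocyte genes. Gfap was 273 CPM in mutant 3 and 24.2 to 32.2 CPM in the other mutants, beside 79.3 to 89.5 CPM in controls. The 8 astrocyte markers summed to 1749 CPM in mutant 3, 716 to 831 CPM in the other mutants and 1290 to 1414 CPM in controls. The pattern of Cnp, with mutants 1, 2 and 4 below all controls and mutant 3 not, was sought after its values were seen. It was shown by 6 of 8 astrocyte markers and by 5 of 26 other myelin genes, Plekhb1, Ermn, Car2, Cmtm5 and Tppp, beside 3.85% of all genes tested. The genes with values most like Cnp were Ndp, Gper1, Tradd, Gadd45b and Cdc42se1, with a root mean square difference of 0.0957 for Ndp and 0.118 for Cdc42se1. For Mbp they were Trak2, Dlgap1, Pou3f3, Cxxc4 and Stk40, with 0.0447 for Trak2 and 0.0641 for Stk40. The part of the astrocyte genes in the Cnp values was not tested.

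Mag, an adhesion molecule of the membrane next to the axon, was 2.49, 2.02, 2.95 and 2.60 CPM in controls and 1.62, 2.67, 1.47 and 1.48 CPM in mutants. Mutants 1, 3 and 4 lay below all controls and mutant 2 lay within them. The log2 fold change was -0.49 (95% interval -1.0 to 0.02, adjusted p = 0.118 from edgeR). Without mutant 2 it was -0.74 (edgeR adjusted p = 0.0212). That was the 1 fit of 8 leaving out 1 sample in which Mag passed. Over the 8 fits the change ran from -0.74 to -0.39, with an edgeR adjusted p of up to 0.274.

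Mog, a protein of the outermost myelin surface, was 6.26, 7.54, 5.44 and 5.76 CPM in controls and 7.40, 6.19, 6.38 and 9.96 CPM in mutants. The groups overlapped, and the log2 fold change was 0.27 (95% interval -0.12 to 0.65, adjusted p = 0.254 from edgeR). That interval leaves out a fall of the size seen for Mbp.

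Opalin, a membrane protein of mature oligodendrocytes, held 0, 1, 0 and 0 counts in controls and 0, 1, 0 and 3 counts in mutants. It was at 0 in 5 of 8 samples and was not tested. Aspa, the enzyme that splits N-acetylaspartate into acetate for lipid synthesis, held 15, 8, 9 and 4 counts in controls and 14, 16, 25 and 7 counts in mutants. Its log2 fold change was 0.65 (95% interval -0.42 to 1.72, adjusted p = 0.318 from edgeR).

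Levels of different genes were compared per kilobase of exon, over the union of all annotated exons, which can exceed the length of the transcripts expressed. In CPM without this division Mbp lay above Cnp in every control, at 73.1 ± 6.36 against 45.6 ± 2.05 (SD, n = 4), so the order of these 2 rests on their lengths of 8469 and 3639 bases. In controls the order was Cnp at 12.5 ± 0.564, Mbp at 8.63 ± 0.751, Mog at 3.67 ± 0.542 and Cldn11 at 1.79 ± 0.674 CPM per kb (SD, n = 4). Mal, Mag, Aspa, Mobp and Opalin followed. Only the neighbors Mal and Mag, and Mobp and Opalin, overlapped in their control ranges. In mutants Cnp stayed above Mbp at 8.29 ± 3.05 and 5.20 ± 0.254 CPM per kb (SD, n = 4), but the ranges of Mbp and Mog, Mog and Cldn11, and Cldn11 and Mal now overlapped too. Mbp and Cnp together made up 87.7% to 90.8% of the summed CPM of the 9 genes in controls and 74.8% to 84.4% in mutants.

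The 9 genes were next set beside genes of the earlier lineage, and the difference between lists was not tested. Over all genes tested, 18.9% were lower and 18.6% higher. All 8 genes of committed and premyelinating oligodendrocytes were tested, 7 were lower and the median log2 fold change was -1.41. Enpp6, a phosphodiesterase of newly formed oligodendrocytes, fell from 2.49 ± 0.625 to 0.111 ± 0.0688 CPM, and Bcas1, a marker of early myelinating cells, from 17.1 ± 2.08 to 1.89 ± 0.479 CPM (SD, n = 4). Sirt2 was the gene that did not pass, at a log2 fold change of -0.03. Of 8 precursor genes 7 were lower, with a median of -0.66 and the largest falls in Xylt1 (-1.5) and Matn4 (-1.36). Pdgfra was at -0.47, and the cell types behind the calls of these lists were not tested.

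The activators of myelin genes changed in both directions. Of 10 tested, 7 were lower (70%) and 3 were higher (30%), beside 18.9% lower and 18.6% higher over all genes. The median log2 fold change of the 10 was -0.84. Zfp488 and Sox10 had the largest falls (-2.22 and -1.5), and Sox10 went from 27.6 ± 1.61 to 9.73 ± 1.99 CPM (SD, n = 4). Without mutants 1 and 2, which were high in choroid plexus markers, 3 were lower and calls over all genes went from 3128 to 1581 lower. Without mutants 1 and 3, which were high in leptomeningeal markers, 7 were lower, among 2482 genes in all. St18 (1.44), Tcf7l2 (0.60) and Zfp536 (0.40) were higher. Zfp536 lay at the threshold (edgeR adjusted p = 0.0498) with overlapping groups. The number of higher activators ran from 2 to 3 with each sample left out. Of 5 inhibitors of differentiation, Sox5 (-1.52) and Id2 (-0.65) were lower and Id4 (0.78) was higher.

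Of 30 other myelin and mature oligodendrocyte genes 26 were tested, 10 were lower (38.5%), 4 were higher (15.4%) and the median was -0.29, beside 18.9% lower and 18.6% higher over all genes. Without mutants 1 and 2, 6 were lower, and without mutants 1 and 3, 12 were. The largest falls were in the connexin genes Gjb1 (-1.30) and Gjc3 (-1.18), and the largest rises in Evi2a (1.24) and Adamts4 (0.87). Cntn2 and Nfasc had the highest control levels of this list, at 329 ± 18.6 and 229 ± 9 CPM (SD, n = 4). Both were among the lower genes, and the cell types behind these calls were not tested. Among 6 genes of myelin sphingolipid synthesis, Fa2h, which hydroxylates the fatty acids of myelin lipids, fell from 1.18 ± 0.0663 to 0.141 ± 0.0623 CPM and Ugt8a, which makes galactosylceramide, from 6.25 ± 0.568 to 3.09 ± 0.398 CPM (SD, n = 4). Cers2 was higher (0.29). The mutant levels of Enpp6 and Fa2h lay near the CPM of 3 counts, so the size of their falls is imprecise.

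**Figure D3:**
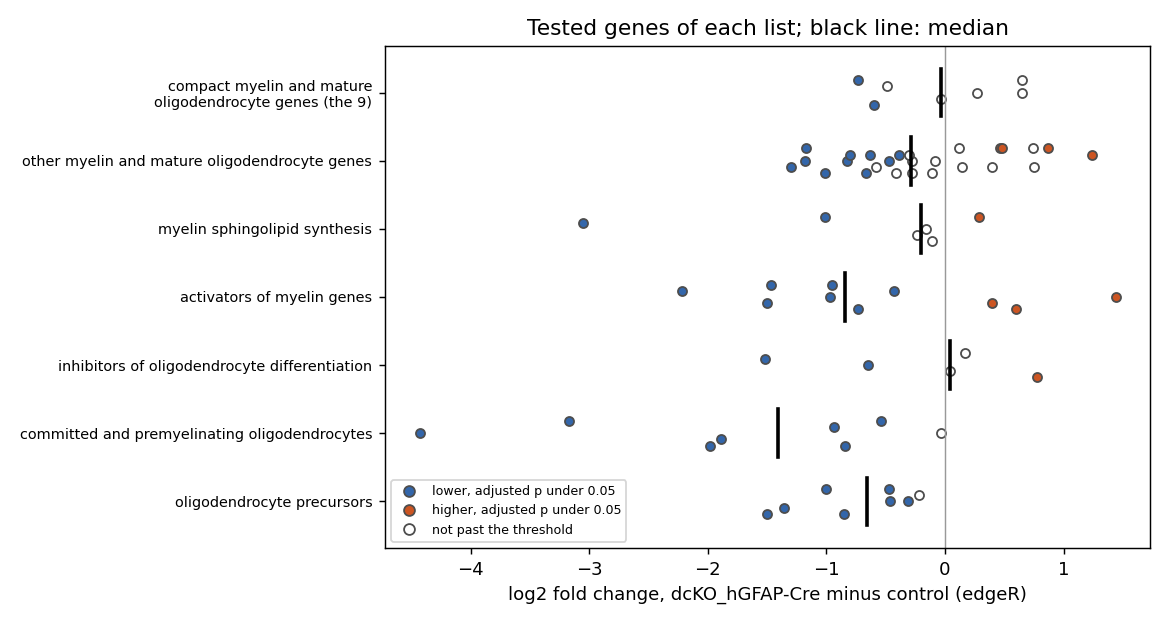
Log2 fold change (dcKO_hGFAP-Cre minus control, edgeR) of each tested gene in 7 lists, filled where the adjusted p was under 0.05, with a black line at each median. The median was -0.03 for the compact myelin and mature oligodendrocyte genes and -1.41 for committed and premyelinating oligodendrocytes.

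Whether the 9 genes and a gene of the lineage changed unequally was tested with the log2 ratio of their counts within each sample, which does not depend on library scaling. Relative to Sox10, Mbp, Cnp, Mag, Mal and Mog were higher in all mutants than in all controls, by 0.80, 0.86, 1.02, 1.47 and 1.77 on the log2 scale. Each gave p = 0.0286 in the exact two-sided permutation test, and 0.0857 after adjustment over 18 ratios. None passed the threshold once adjusted. No smaller p is possible with 4 samples against 4, so a ratio could pass only if most of the 18 separated the groups. Sox10 itself had a log2 fold change of -1.50, beside a median of 0.02 over all genes tested. A gene without change is therefore also higher relative to Sox10, and these separations are not read as a trait of the genes named. The share of all genes that separate in this way was not counted. Relative to Pdgfra, Mog was higher in all mutants by 0.71 (exact permutation p = 0.0286, adjusted 0.0857). The ratio of Mbp to Pdgfra differed by -0.26 (exact permutation p = 0.143) and that of Cnp by -0.19 (exact permutation p = 0.486), with overlapping groups. Pdgfra itself had a log2 fold change of -0.47, and its exons also overlap annotated genes on the opposite strand.

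**Figure D4:**
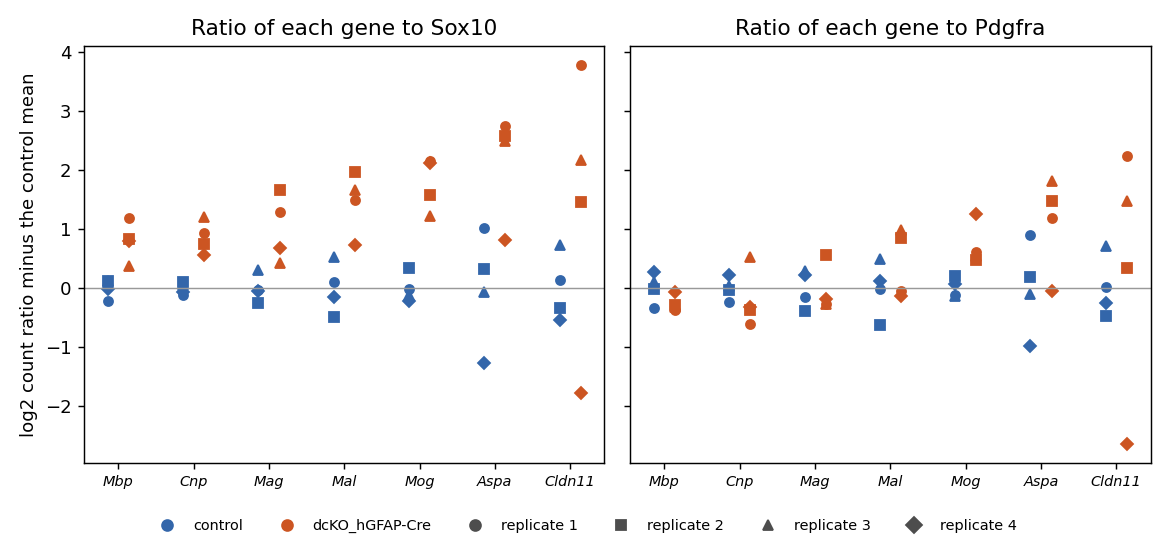
Log2 ratio of the counts of 7 genes to Sox10 (left) and to Pdgfra (right) in each sample, after subtracting the control mean of that ratio. Mbp, Cnp, Mag, Mal and Mog lie above all controls in all mutants relative to Sox10, and Mog also relative to Pdgfra. Sox10 and Pdgfra were themselves lower in mutants, so a gene without change would also be higher relative to them.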

How the data were processed

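RNA-seq of P3 cortex from 4 dcKO_hGFAP-Cre and 4 control mice was used. The authors mapped the reads to mm10 and deposited raw featureCounts counts for each gene, without normalization. The aligner, annotation and strand setting are not given in the sources used here. Of 48709 genes, 48349 matched GENCODE vM21. Counts were tested with edgeR 4.0.16 (R 4.3.3): TMM, filterByExpr (minimum count 10), robust quasi-likelihood F test, no block, Benjamini-Hochberg over 16525 genes, threshold 0.05. The edgeR fit was also run on simulated counts that took their means and dispersions from these data. Exact permutation tests covered 70 arrangements. Ratios used counts plus 0.5. The 95% intervals come from the moderated t distribution of the fit.

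Members and lists were chosen with earlier results of these data known. Named are the 9 genes, the deleted genes, the 2 largest falls and rises of each list, and the 5 genes most like Mbp, Cnp and Cldn11. Promoter motifs were first counted over 250 bases before and 50 after the start site, and then over the 250 bases before the start site. The pattern of mutant 3 and the fits without mutants 1 and 2 or 1 and 3 were chosen after seeing the data. Some myelin genes are not reported here. Nothing states that samples came from separate litters, so p-values measure the spread between these samples. Alternatives were DESeq2 1.42.0, limma-voom (limma 3.58.1), other scalings and filters, replicate or lane blocks, and each replicate left out.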

Additional observations from a re-analysis of the deposited data

Results flagged for a closer look

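In 4 of 18 groups of 4 samples, 1 sample lay far from the others by Dixon's criterion, which flags about 1 in 20 groups by chance. Cnp was 46.8 CPM in mutant 3, far above the other mutants. Mag was 2.67 CPM in mutant 2, the highest mutant. Mobp was 0.0302 CPM in mutant 4, the lowest mutant, and Opalin was 0.0493 CPM in control 2, the highest control, both from 1 count.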

How the results depend on the processing

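Mbp was lower past the threshold in the 8 fits that left out 1 sample (log2 fold change -0.80 to -0.71) and in the 10 other alternatives (-0.75 to -0.61). The number of the 9 genes called lower was 2, and 1 with library totals, with no filter on low counts and, in fits chosen after seeing the data, without mutants 1 and 2, and it ran from 1 to 2 with each sample left out. Cnp was the call that was lost (edgeR adjusted p = 0.0769 with library totals, 0.152 with no filter and 0.252 without mutants 1 and 2), and without mutant 2 Mag was called in its place. Without mutants 1 and 2, 1581 genes were lower and 1388 higher, from fewer samples. Library totals moved the median of all genes by 0.121 and gave 2102 lower and 4584 higher genes, against 3128 and 3074. Cldn11 changed sign with limma-voom (-0.26), without mutants 1 and 2 (-0.04) and without mutants 1 and 3 (-1.11), and ran from -0.09 to 1.07 with each sample left out. Mal was 0.10 with library totals and ran from -0.23 to 0.18. The cause was not tested. With the replicate number as a block, 2 of the 9 genes were lower, as without it, among 2982 lower genes in all. Deviations of same-numbered samples correlated at 0.171, -0.068, 0.213 and -0.024, so the numbers were not taken to pair the samples. Ratios without 1 sample were read as values, with no test. Counts of at most 4 limit Mobp and Opalin.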
